A study of Ovis aries with 6 samples.

Results

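Cells divide by switching cyclin-dependent kinases on and off, and the genes of that machinery were compared here between cultured sheep skin epidermal stem cells and corneal epithelia cells. The members are the array probes whose description names a cyclin, cell division, mitosis, the spindle, the centromere, the kinetochore, a kinesin, DNA replication, a minichromosome protein, a DNA polymerase or a topoisomerase, or whose gene name begins as those of the cyclin, CDK, CDC and MCM families do. Of 15008 gene probes, 34 met this rule, 28 by their description and 6 by gene name only. They stand for 30 genes, of 14228 gene names on the array. Of these genes 4 had 2 probes, and every member was printed once on each array. The rule itself uses no measured value.

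The series holds 3 samples of skin epidermal stem cells (tissue label skin) and 3 of corneal epithelia cells, each on its own single-colour Agilent array, and the design text calls the samples of each kind cell lines. All 6 were adherent cells lifted with trypsin, with no treatment, genotype or animal age in the labels. The labels do not tie the samples of a group to separate animals or cultures. A p-value therefore weighs a difference against the spread among these 3 samples a group, and that spread may be technical. The limma fit used below also draws the spread of each probe toward that of all probes tested, so it is not the probe's own spread alone.

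Cyclins rise and fall through the division cycle and activate the kinases (CDKs), which start DNA replication and then mitosis. Inhibitor proteins bind cyclin and CDK pairs and hold cells before replication. DNA polymerases and topoisomerases copy and untangle the DNA, and the kinetochore, the spindle and some kinesins, motors that walk along or take apart microtubules, separate the copies. In skin and cornea the basal layer of the epithelium holds the dividing cells, and cells leave the cycle as they differentiate.

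Of the keratinocyte and corneal epithelial markers sought, 5 genes had a probe. KRT3, KRT5, KRT10, KRT12, ITGA6, CDH1 and EPCAM had none matched. Those with a probe gave little or no signal above background in either culture, apart from PAX6. Most mesenchymal markers with a probe were bright in both. Both TP63 probes and the KRT19 probe were well above background on none of the 6 arrays, the KRT14 probe on 2 epidermal arrays and 0 corneal ones, and the KRT15 probe on 3 epidermal arrays and 1 corneal one. Of 7 keratinocyte and corneal epithelial probes (5 genes), 2 were well above background on all 6 arrays, both for PAX6, against 12 of 14 mesenchymal probes (8 genes). The summed log2 level of the mesenchymal probes was 10.58 to 10.84 on the epidermal arrays and 10.51 to 10.55 on the corneal ones, and that of the keratinocyte and corneal probes -1.76 to -1.69 and -1.45 to -1.36. The keratinocyte and corneal sum is carried by the 2 PAX6 probes, both called higher in corneal cells, at 0.31 and 0.36 (limma adjusted p = 0.0128 and 0.00329). The mesenchymal sum is carried by its brightest probes, and single mesenchymal markers differed between the groups: 6 of the 14 probes were called lower in corneal cells and 2 higher. The COL3A1 probes changed by -5.32 and -4.51 and the FN1 probes by 0.93 and 0.95 (limma adjusted p = 2.92e-06, 1.64e-07, 1.12e-05 and 7.80e-06). POSTN was well above background on 3 and 2 epidermal arrays at its 2 probes and on 0 corneal arrays at both. The groups are therefore called epidermal and corneal below as labels only, and the part of other cell types in the changes of single genes was not tested. On each array 15208 gene spots were measured, and 80.2% ± 2.36 (SD, n = 3) of them were well above background on epidermal arrays against 74.1% ± 1.56 (n = 3) on corneal ones (exact two-sided permutation test p = 0.1, the smallest 3 against 3 can give). The 6 arrays shared 1 slide, with each group in a slide row of its own, so row and group cannot be told apart.

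The probes are 60-base oligonucleotides, and those of the genes on which the results turn are printed here 5′ to 3′ as the array files give them, because each level below is the hybridisation to that one stretch. The first 5 are in lower case. In the KIF5B pair, the capitals mark the 30 bases that both probes share.
CCNA2: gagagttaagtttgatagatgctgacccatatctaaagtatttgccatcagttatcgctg
CDK1: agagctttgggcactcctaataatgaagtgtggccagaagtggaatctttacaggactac
CDK2: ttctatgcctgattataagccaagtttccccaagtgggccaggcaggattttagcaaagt
CDK4: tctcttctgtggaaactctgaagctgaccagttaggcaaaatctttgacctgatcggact
CDKN1C: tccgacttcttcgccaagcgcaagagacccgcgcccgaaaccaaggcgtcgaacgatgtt
KIF5B member probe: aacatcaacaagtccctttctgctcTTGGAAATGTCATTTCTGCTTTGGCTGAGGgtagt
KIF5B second probe: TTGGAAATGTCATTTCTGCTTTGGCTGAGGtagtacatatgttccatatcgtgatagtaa
The CDK1, CDK2 and CDK4 probes had the same base composition, 45.0% G and C, while the CCNA2 probe had 38.3% and the CDKN1C probe 60.0%. Over all 34 members the G and C content ran from 35.0% to 60.0% with a median of 41.7%, against a median of 43.3% over all probes tested. Positions of the probes in the genome were not used here.

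Cyclin A2 and cyclin B1 were higher in the corneal cultures, while CDK2 and the inhibitors CDKN1C and CDKN1A were lower. The inhibitor CDKN1B was not called on its 2 member probes, but was higher by 0.43 on a probe outside the rule. The cyclin-dependent kinases split, with CDK8, CDK4 and CDK5 higher and CDK2 lower, although CDK4 and CDK5 were not called without scaling between arrays. All 3 replication enzyme probes were lower, where 32.9% of all probes tested were, but POLD2 lost its call with some single arrays left out. Of 5 kinesin probes 4 were higher, where 26.7% of all probes tested were, and 2 of these 4 were not called without scaling. Second probes of the topoisomerase and of KIF2A, outside the rule, were not called. The centromere genes went both ways. Levels are log2 of the background-corrected signal minus the array's 75th percentile, so 0 is a bright spot of that array, and a change is corneal minus epidermal on this log2 scale. A probe was called where limma's adjusted p, over the 11742 probes well above background on at least 3 arrays, was under 0.05.

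Of the 34 member probes, 13 were called higher in corneal cells, where 26.7% of all probes tested were higher, and 9 were called lower, where 32.9% were lower. Together 22 members, or 64.7%, were called, against 59.6% of all probes tested in either direction, so the overall share was near the background. The remaining 12 were not called. The 2 groups did not overlap at 27 members, or 79.4%, against 67.6% of all probes tested. All corneal arrays were above at 16 of the 34 members and all below at 11, against 3571 above and 4371 below of the 11742 probes tested. The mesenchymal markers COL3A1, POSTN and FN1 differed between the same arrays, as given above, and their part in these counts was not tested. The median change of the members was 0.12 against -0.04 for all probes tested, and the median size of change, direction aside, was 0.23 against 0.24. All 34 members were well above background on all 6 arrays, against 71.6% of the 15008 probes, so no member entered the test through 1 group alone. The 11742 probes tested are thus an unlike reference, since only 10749 were well above background on all 6 arrays. With those 10749 alone tested, 3145 were higher and 3603 lower, and 14 members were higher and 9 lower.

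By gene, 12 of 30 were higher, 8 lower and 9 not called, and CDKN2AIPNL was lower on 1 of its 2 probes. A change of at least 2-fold was called for 1 member upward, CCNA2, against 3.5% of all probes tested, and for 1 member downward, CDKN1C, against 4.28%. Without any scaling between arrays, which moved the median change of all probes by -0.17, 6 members were higher and 14 lower, and 22.5% rather than 44.8% of all calls were higher. Replicates lay close together: the median SD of a member was 0.05 on the epidermal arrays and 0.04 on the corneal ones, against 0.06 and 0.05 for all probes tested.

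**Figure D1:**
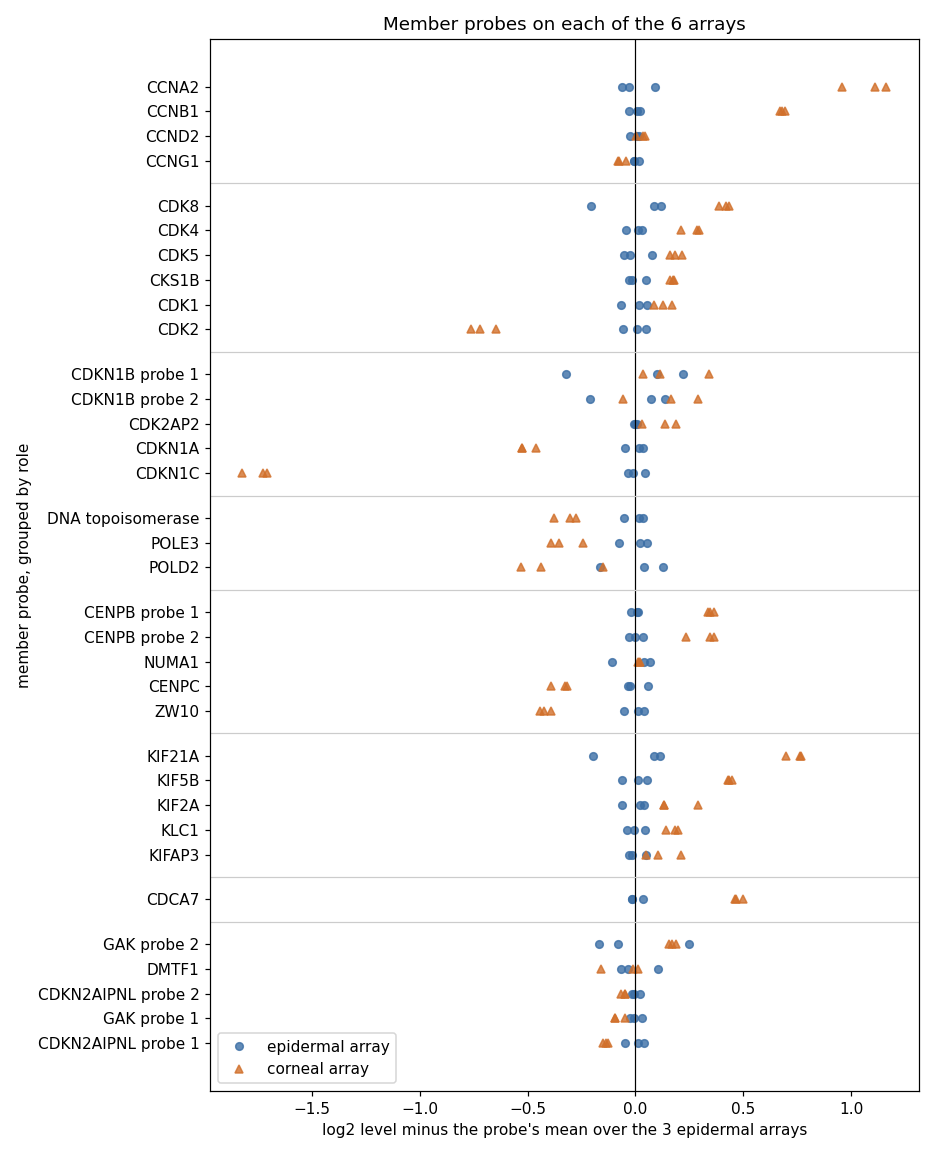
Level of each member probe on each array, as log2 minus the probe's mean over the 3 epidermal arrays (x axis), with members grouped by role (y axis). Blue circles are epidermal arrays and orange triangles corneal ones. The corneal arrays sit far right of the epidermal ones at CCNA2 and CCNB1 and far left at CDKN1C, CDK2 and CDKN1A, while they mix at CCND2, NUMA1 and both CDKN1B probes.

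Among the 4 cyclins, 2 were higher in corneal cells and 2 were not called. CCNA2, the cyclin that pairs with CDK2 in DNA replication and with CDK1 before mitosis, read -3.09, -3.06 and -2.94 on epidermal arrays 1 to 3 and -1.87, -1.92 and -2.07 on corneal arrays 1 to 3. In unscaled signal these were 129.8, 115.2 and 127.2 against 247.8, 239.1 and 211.3 intensity units. All corneal arrays were above all epidermal ones, and the change was 1.08 ± 0.07 (SE), or 2.11-fold (limma adjusted p = 7.73e-05). In the alternative with normexp background correction (an offset of 50 on every probe, quantile normalization, and without 7 spots whose surroundings were very bright, called normexp from here on), the change was 0.83 and no longer 2-fold.

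CCNB1, the partner of CDK1 that drives entry into mitosis, read 0.27, 0.32 and 0.30 on the epidermal arrays and 0.97, 0.97 and 0.99 on the corneal ones. The groups were apart by many times their spread, with a change of 0.68 ± 0.03, or 1.60-fold (limma adjusted p = 1.54e-05). A second CCNB1 probe, which the rule left out because its own annotation carries no matching word, changed by 0.66 ± 0.03 (limma adjusted p = 2.06e-05). It and the other second probes outside the rule were found by shared accession cluster in the array annotation, after the values had been seen.

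CCND2, a D-type cyclin that answers growth signals and activates CDK4, was not called: its 6 levels lay between 3.91 and 3.97, the groups overlapped, and the change was 0.03 with a 95% interval from -0.04 to 0.10 (limma adjusted p = 0.458). CCNG1, an atypical cyclin, read 0.64, 0.62 and 0.62 against 0.58, 0.55 and 0.55. Its groups did not overlap, but the change of -0.07 missed the threshold (95% interval -0.14 to 0.00, limma adjusted p = 0.0823). The share of cells in division and the RNA of each cell cannot be told apart in such bulk RNA.

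Of the 6 probes for cyclin-dependent kinases and their subunit, 4 were higher, 1 was lower and CDK1 was not called. CDK2, the kinase that starts and carries DNA replication, read -1.44, -1.48 and -1.55 on the epidermal arrays and -2.14, -2.21 and -2.25 on the corneal ones. Every corneal array was below every epidermal one, and the change was -0.71 ± 0.05, or 1.64-fold lower (limma adjusted p = 7.98e-05). CDK2 thus went the other way from CCNA2, its cyclin partner.

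CDK1, the mitotic kinase and the partner of CCNB1, read -2.91, -2.83 and -2.79 against -2.68, -2.72 and -2.76. The corneal arrays were all above, but by little: the change was 0.13 ± 0.04 with a 95% interval from 0.02 to 0.24 (limma adjusted p = 0.0508). This value sits at the threshold, and CDK1 was called under 5 of the alternatives, with adjusted p from 0.0124 in the authors' deposited table to 0.0431 when only probes well above background on all 6 arrays were tested. Without scaling between arrays its change was -0.04.

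CDK4, the kinase that D-type cyclins activate early in the cycle, read 0.63, 0.69 and 0.71 in epidermal cells and 0.89, 0.96 and 0.97 in corneal cells. The groups were apart, with a change of 0.26 ± 0.04 (limma adjusted p = 0.00203). CKS1B, a small CDK-binding subunit that also helps mark CDKN1B protein for destruction, read 2.43, 2.51 and 2.44 against 2.64, 2.62 and 2.63, a change of 0.17 ± 0.03 (limma adjusted p = 0.0056).

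CDK8 and CDK5 act mainly outside the division cycle. CDK8, a kinase of the Mediator complex that regulates transcription, read -3.76, -3.47 and -3.44 against -3.12, -3.17 and -3.13, a change of 0.41 ± 0.09 (limma adjusted p = 0.0102). CDK5, best known from neurons and activated by partners other than cyclins, read -0.50, -0.40 and -0.53 against -0.29, -0.32 and -0.26, a change of 0.19 ± 0.04 (limma adjusted p = 0.0138). In both the corneal arrays were all above the epidermal ones, and epidermal array 1 was the lowest for CDK8. Without scaling between arrays the changes of CDK4, CDK5 and CKS1B were 0.09, 0.02 and 0.00 and were not called.

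**Figure D2:**
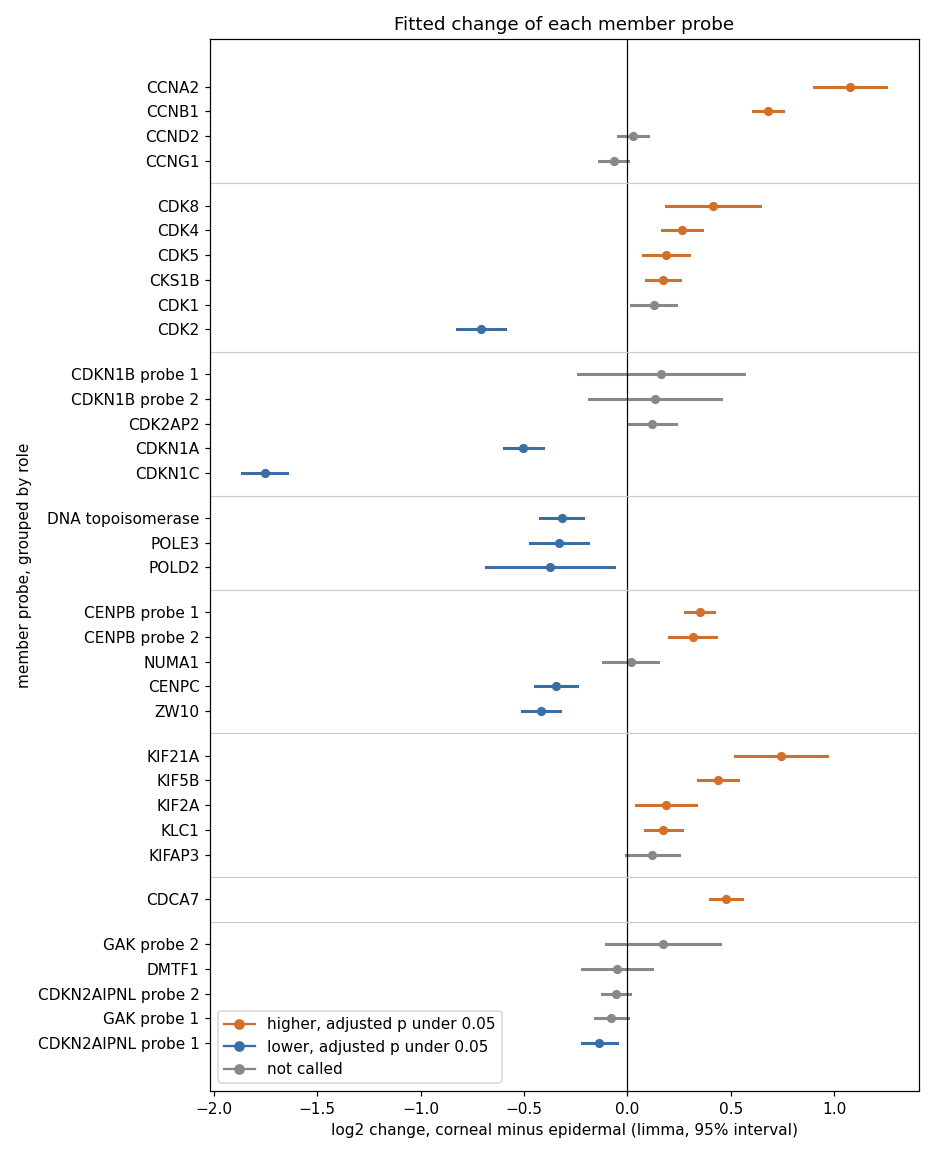
Fitted change of each member probe, corneal minus epidermal in log2 (x axis), by role (y axis). Points are limma estimates from 3 arrays a group and bars their 95% intervals, in orange where called higher, blue where called lower and grey where not called. CDKN1C at -1.75 and CCNA2 at 1.08 are the only members beyond a change of 1 in either direction, and CCNA2 is not beyond 1 with normexp or without scaling.

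Among the inhibitors and CDK-binding proteins, 2 of 5 probes were lower and 3 were not called. CDKN1C, an imprinted inhibitor of cyclin and CDK pairs that holds cells out of division, had the largest change of any member. Its levels were 0.44, 0.50 and 0.42 on the epidermal arrays and -1.27, -1.26 and -1.37 on the corneal ones. In unscaled signal these were 1505, 1353 and 1302 against 373.2, 378.7 and 343.2 intensity units. The groups were far apart and tight within, with a change of -1.75 ± 0.04, or 3.37-fold lower (limma adjusted p = 2.23e-06).

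CDKN1A, an inhibitor that is induced by DNA damage, read 4.31, 4.40 and 4.38 against 3.90, 3.84 and 3.84. All corneal arrays were below, with a change of -0.50 ± 0.04, or 1.42-fold lower (limma adjusted p = 0.00013).

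CDKN1B, the remaining inhibitor of the same family, had 2 member probes that share 59 of their 60 bases, so they are close to repeats of 1 measurement. Both were dim and mixed between the groups: the first read -4.54, -5.08 and -4.66 against -4.73, -4.42 and -4.65. The change was 0.16 on the first (95% interval -0.24 to 0.56, limma adjusted p = 0.422) and 0.13 on the second (-0.19 to 0.45, adjusted p = 0.412). Another CDKN1B probe, outside the rule, read -0.37, -0.33 and -0.28 against 0.15, 0.11 and 0.05, and changed by 0.43 ± 0.04 (limma adjusted p = 0.0004). The direction of CDKN1B is therefore not settled by the members: the intervals of both member probes include 0 and include the change of the probe outside the rule.

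CDK2AP2, a protein named for its association with CDK2, read 5.32, 5.33 and 5.32 against 5.51, 5.46 and 5.36, where corneal array 3 stood between the epidermal arrays and the other corneal ones. The change was 0.12 (95% interval 0.00 to 0.23, limma adjusted p = 0.0741). Without corneal array 3 it was 0.16 and was called (adjusted p = 0.0193). It was also called with quantile normalization, at 0.17 (adjusted p = 0.0302), and without scaling between arrays it was -0.05.

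All 3 probes of replication enzymes were lower in corneal cells, and their changes stayed below 0 under every scaling tried. POLE3, a small histone-fold subunit of DNA polymerase epsilon, which copies the leading strand, read -1.55, -1.59 and -1.68 against -1.85, -1.96 and -1.999. The groups did not overlap, and the change was -0.33 ± 0.06 (limma adjusted p = 0.00385). The probe described only as a DNA topoisomerase, an enzyme that relaxes the twist ahead of replication, read -2.71, -2.78 and -2.69 against -3.00, -3.10 and -3.03, a change of -0.32 ± 0.04 (limma adjusted p = 0.00139). The array annotation does not say which topoisomerase it is. A second probe of the same cluster, outside the rule, changed by -0.26 ± 0.14 and was not called (limma adjusted p = 0.152).

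POLD2, the regulatory subunit of DNA polymerase delta, which copies the lagging strand, read -3.88, -3.68 and -3.59 against -4.25, -4.16 and -3.87. Corneal array 3 was level with epidermal array 1, so the groups overlapped, and the change was -0.37 ± 0.12 (limma adjusted p = 0.0441). This call ended without epidermal array 2 (-0.35, adjusted p = 0.112), epidermal array 3 (-0.31, 0.126), corneal array 1 (-0.29, 0.115) or corneal array 2 (-0.34, 0.115).

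At the spindle and the centromere, 2 probes were higher, 2 were lower and 1 was not called. CENPB, which binds repeated DNA of the centromere, was the gene that was higher, on both of its probes. Its first probe read 4.42, 4.45 and 4.46 against 4.78, 4.79 and 4.81, a change of 0.35 ± 0.03 (limma adjusted p = 0.000166). The second read 1.38, 1.41 and 1.45 against 1.65, 1.76 and 1.78, a change of 0.32 ± 0.05 (adjusted p = 0.00188). The probes share no run longer than 7 bases, and on both all corneal arrays were above all epidermal ones. Without scaling between arrays neither was called, at 0.18 and 0.14.

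CENPC, which links centromeric chromatin to the kinetochore, went the other way from CENPB. It read -0.33, -0.24 and -0.32 against -0.62, -0.69 and -0.61, a change of -0.34 ± 0.04 (limma adjusted p = 0.000862). ZW10, a kinetochore protein of the spindle checkpoint that also brings the motor dynein to kinetochores, read 1.45, 1.55 and 1.52 against 1.06, 1.12 and 1.09, a change of -0.42 ± 0.04 (limma adjusted p = 0.000261). For both genes no corneal array reached the lowest epidermal one.

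NUMA1, which gathers microtubule ends at the spindle poles, was not called. Its levels were 3.65, 3.83 and 3.80 against 3.78, 3.77 and 3.78, so that epidermal array 1 was the lowest and the groups overlapped. The change was 0.02 with a 95% interval from -0.12 to 0.15 (limma adjusted p = 0.817), and -0.04 without epidermal array 1 (adjusted p = 0.293). A second NUMA1 probe outside the rule changed by -0.05.

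Of the 5 kinesin probes, 4 were called higher and KIFAP3 was not called, although without scaling between arrays KIF2A and KLC1 lost the call, at 0.01 and 0.00, and KIFAP3 stood at -0.05. Most of these motors carry cargo and do not act in mitosis. KIF21A, a motor that moves toward microtubule plus ends and is best known from neurons, read -2.81, -2.50 and -2.52 against -1.91, -1.85 and -1.84. Even the highest epidermal array was below the lowest corneal one, with a change of 0.74 ± 0.09, or 1.67-fold (limma adjusted p = 0.000927).

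KIF5B, the widely expressed heavy chain of conventional kinesin, read 5.41, 5.53 and 5.49 against 5.92, 5.91 and 5.91, a change of 0.44 ± 0.04 (limma adjusted p = 0.000267). Its second probe, whose capitals above mark the shared stretch, read 4.73, 4.86 and 4.78 against 5.20, 5.30 and 5.20 and also changed by 0.44 (SE 0.05, adjusted p = 0.000652). KLC1, a light chain that joins such heavy chains to cargo, read 1.02, 1.07 and 0.99 against 1.23, 1.17 and 1.21, a change of 0.17 ± 0.04 (limma adjusted p = 0.00744). After scaling, heavy and light chain were both higher on every corneal array than on any epidermal one. Without scaling the light chain changed by 0.00 and was not called.

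KIF2A, the member motor that takes microtubules apart at the spindle poles, read -2.77, -2.87 and -2.78 against -2.51, -2.68 and -2.67, a change of 0.19 ± 0.06 (limma adjusted p = 0.0363). The groups were close to each other, and the call ended without epidermal array 1 (0.20, adjusted p = 0.0574), epidermal array 2 (0.15, 0.0984), epidermal array 3 (0.20, 0.0749), corneal array 1 (0.13, 0.0634) or corneal array 3 (0.21, 0.0502). A second KIF2A probe outside the rule, with 6 levels between 0.45 and 0.49, did not show the difference: its change was 0.00 with a 95% interval from -0.07 to 0.07 (adjusted p = 0.968). KIFAP3, the cargo adaptor of another kinesin family, read -2.82, -2.74 and -2.80 against -2.58, -2.68 and -2.74, a change of 0.12 that was not called (95% interval -0.01 to 0.25, limma adjusted p = 0.0884). With quantile normalization KIFAP3 was called, at 0.16 (adjusted p = 0.03).

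CDCA7, a target of MYC and E2F that takes part in keeping DNA methylation through division, was the only member grouped under other cell division genes. It read -1.08, -1.03 and -1.08 against -0.57, -0.60 and -0.60, a change of 0.48 ± 0.03 (limma adjusted p = 7.55e-05). A second CDCA7 probe outside the rule changed by 0.47 ± 0.04 (limma adjusted p = 0.000207). The groups were well apart on both probes.

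**Figure D3:**
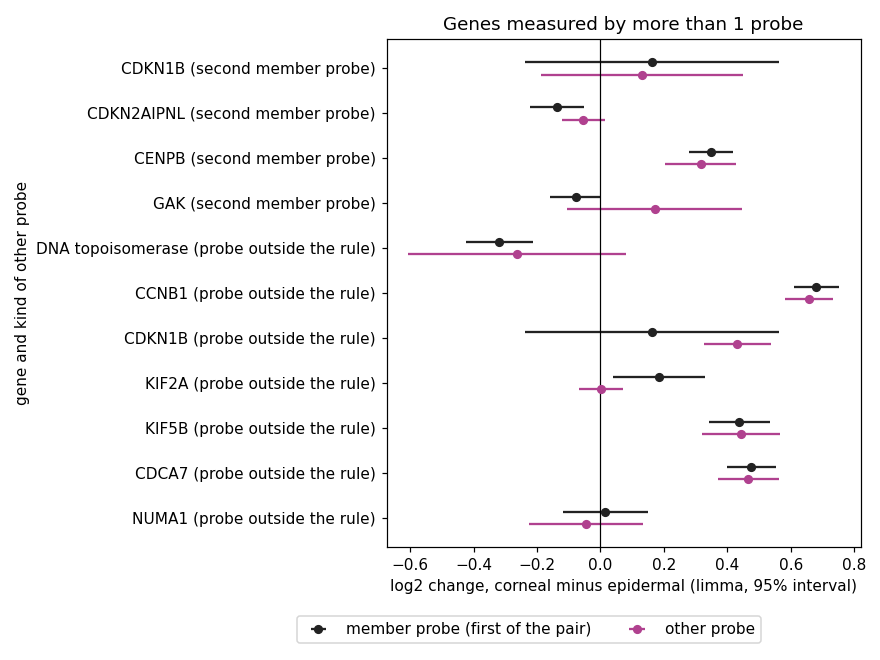
Change of a member probe (black) and of another probe for the same gene (purple), corneal minus epidermal in log2 (x axis), with limma 95% intervals from 3 arrays a group. Rows (y axis) give the gene and whether the other probe is a second member or outside the rule. Probe pairs of CCNB1, KIF5B (which share 30 bases), CDCA7 and CENPB gave nearly the same change, while those of KIF2A (0.19 and 0.00) and of GAK (-0.08 and 0.17) did not. The CDKN1B probe outside the rule gave 0.43 against 0.16, within the wide interval of the member probe.

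The rule also took in 5 probes of 3 genes that matched through the name of a cyclin or an inhibitor to which they are linked. They were set apart by name and description, which does not exclude a part in division, and 1 of these probes was called. CDKN2AIPNL, named for its likeness to a protein that binds a CDK inhibitor, read 4.89, 4.95 and 4.98 against 4.81, 4.80 and 4.79 on its first probe, a change of -0.14 ± 0.03 (limma adjusted p = 0.0158). That call ended without epidermal array 3 (-0.12, adjusted p = 0.0509), corneal array 2 (-0.14, 0.0512) or corneal array 3 (-0.13, 0.0552). Its second probe changed by -0.05 and was not called (95% interval -0.12 to 0.01, limma adjusted p = 0.135).

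GAK, a cyclin G-associated kinase that strips clathrin from vesicles, gave -0.08 on its first probe (95% interval -0.16 to 0.00, limma adjusted p = 0.0811) and 0.17 on its second (-0.10 to 0.45, adjusted p = 0.232). On the second probe epidermal array 2 stood at -2.93, above the corneal levels of -3.02, -2.99 and -3.00, while epidermal arrays 1 and 3 were at -3.34 and -3.25. Without epidermal array 2 that change was 0.30 and was called (adjusted p = 0.00395). DMTF1, a cyclin D-binding transcription factor, changed by -0.05 (95% interval -0.22 to 0.12, limma adjusted p = 0.544), with overlapping groups, and by 0.0021 without corneal array 1. With these 3 genes left out, 13 of 29 probes (44.8%) were higher and 8 (27.6%) lower, against 26.7% and 32.9% of all probes tested. The 29 still include CDK5, CDK8 and the cargo-carrying KIF21A, KIF5B and KLC1, all called higher, so this is not a count of division genes alone.

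**Figure D4:**
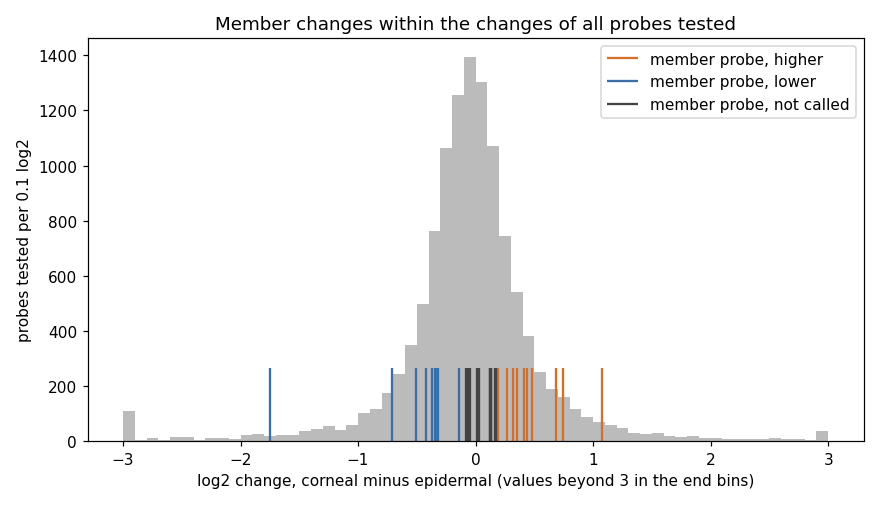
Changes of the 34 member probes (vertical lines, coloured by call) over the changes of all 11742 probes tested (grey bars), corneal minus epidermal in log2 (x axis), as probes per 0.1 log2 (y axis). Most members lie within the bulk of the array, and CDKN1C at -1.75 and CCNA2 at 1.08 lie in its tails.

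Other genes of replication, mitosis and their control, from a list of 117 genes, had a probe for 14 genes outside the rule, on 16 probes. Of these 16 probes, 2 were called higher, 11 lower and 3 were not called, with a median change of -0.25. Over all probes tested 26.7% were higher and 32.9% lower, with a median change of -0.04. TYMS, which makes thymidylate for DNA synthesis, was higher: it read -2.49, -2.66 and -2.66 against -1.86, -1.91 and -1.87, a change of 0.72 ± 0.06 (limma adjusted p = 0.000161).

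AURKA, a kinase of the centrosome and the mitotic spindle, was the other higher gene, and its size rests on corneal array 3. It read -4.34, -4.32 and -4.57 on the epidermal arrays and -3.50, -3.42 and -1.81 on the corneal ones. All corneal arrays were above, but array 3 was far above the other corneal arrays, and the change was 1.50 ± 0.47 (limma adjusted p = 0.0365). Without corneal array 3 it was 0.95 ± 0.09 (adjusted p = 0.00127). The call ended without epidermal array 1 (1.53, adjusted p = 0.0832), epidermal array 2 (1.54, 0.0807) or epidermal array 3 (1.42, 0.101).

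Several listed genes were lower. MDM2, a ubiquitin ligase, read 1.54, 1.84 and 1.85 against 1.07, 1.15 and 1.17, a change of -0.61 ± 0.09 (limma adjusted p = 0.00246). No corneal array overlapped the epidermal ones.

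ORC4, a subunit of the complex that marks replication origins, changed by -0.52 ± 0.05 (limma adjusted p = 0.000342). LMNB1, a protein of the nuclear lamina, changed by -0.28 and -0.41 on its 2 probes (limma adjusted p = 0.00153 and 0.00118), and the first of these was not called with normexp, at -0.085 (adjusted p = 0.0772). Further probes called lower, with changes from -0.27 to -0.15, were those of RPA1, RAD21, SKP1, TUBB and RFC5 and 1 of the 2 for PCNA, the sliding clamp of DNA polymerases. HMGB2 at -0.32 (adjusted p = 0.0597), H2AFZ at 0.07 (adjusted p = 0.105) and the other PCNA probe at -0.07 (adjusted p = 0.181) were not called.

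**Figure D5:**
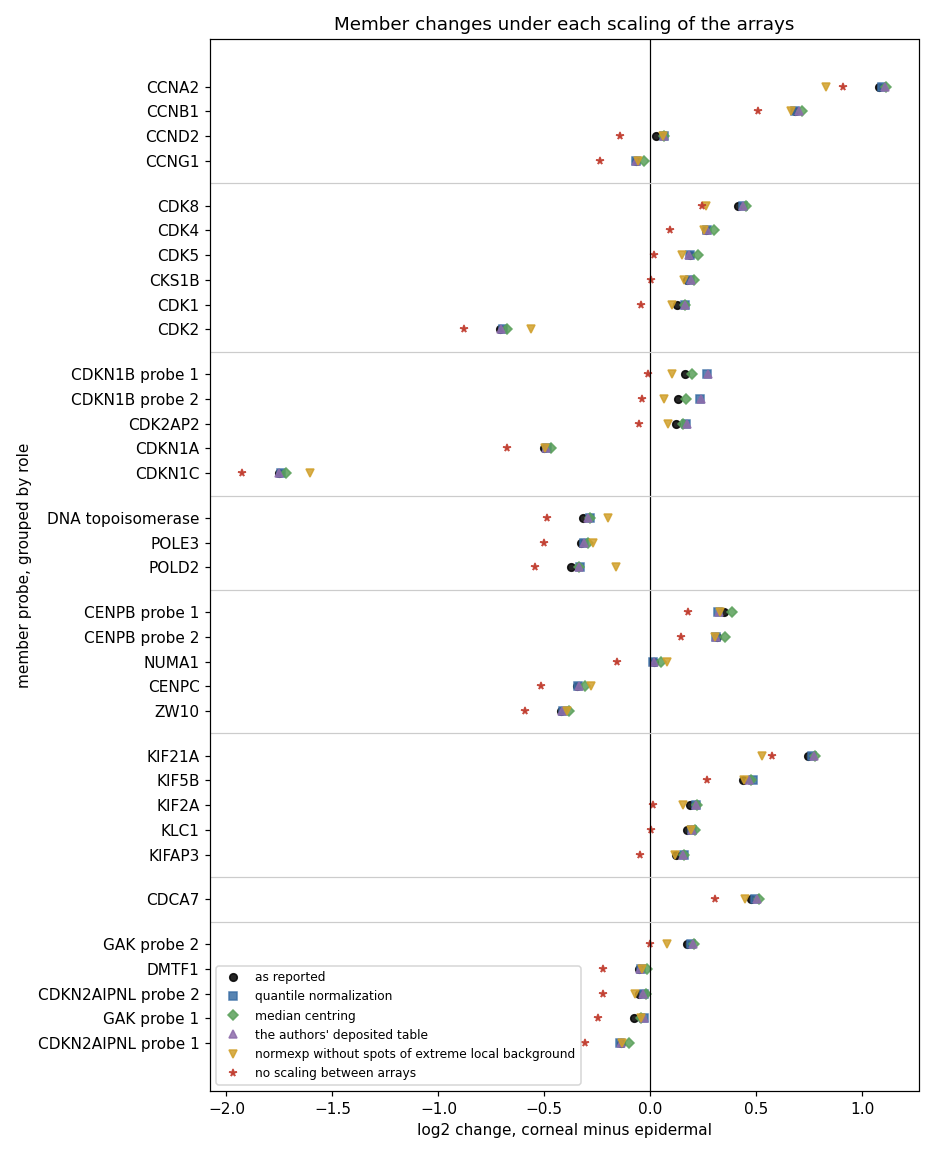
Change of each member probe, corneal minus epidermal in log2 (x axis), under each scaling of the arrays (symbols), by role (y axis). Black points are the changes as reported. Quantile normalization, median centring and the authors' deposited table lie close to them, and values without scaling (red stars) lie to the left, which takes CDK1, CCND2, CDK2AP2, KIFAP3, NUMA1, both CDKN1B probes and the second GAK probe from above 0 to below it.

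Leaving out scaling moves every member's change by the same -0.17, so that a smaller rise turns below 0 by construction. Of the 22 called members, 15 kept their call without scaling, and the direction of CCNA2, CCNB1, CDK2, CDKN1A and CDKN1C was the same under all 5 other ways of scaling or background correction. Leaving out each array in turn, 19 of the 22 kept their call in every fit, and POLD2, KIF2A and the first CDKN2AIPNL probe lost it in at least 1.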

How the data were processed

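RNA of 3 epidermal and 3 corneal samples was labelled with Cy3 and hybridised to 1 array each, per the labels' protocols. Agilent Feature Extraction 10.7 read the spots, per the submitters' processing notes. Its processed signal is a linear intensity that, per the file headers, had background removed and a spatial trend taken out within the array. A further table deposited by the authors holds log2 values with a median of 7.23 on every array and served as an alternative.

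Control spots were left out, as were outlier spots (values of 19 probes). Log2 processed signals had the array's 75th percentile subtracted. Probes well above background on at least 3 of 6 arrays (11742 of 15008) were fitted with limma 3.58.1 in R 4.3.3 (lmFit, eBayes) on all 6 arrays with no covariate, with Benjamini-Hochberg adjustment over all of them and a threshold of 0.05. On simulated data with 200 of 11742 probes changed by 1 log2, 91.5% were recovered and 2.66% of calls were false. In the data 59.6% of probes tested were called, and the median size of change was 0.24, or 0.23 for members. The simulated rates therefore do not carry over to the smaller changes of most members. Members, gene lists and roles were chosen with earlier results of these data known. Symbols of probes named only by a cluster number were assigned by hand from the array's descriptions. Named were, per role, up to 4 called members with the largest rise and 4 with the largest fall, the brightest uncalled member and any with a change of at least 1, and up to 5 rises and 5 falls of the pathway list. The remaining members were added so that all are accounted for. Alternatives covered scaling, background, filters, probes per gene, a replicate block and each array left out. Besides the epithelial and mesenchymal markers, all 3 immune probes (CD14 alone) were well above background on all 6 arrays and lower in corneal cells, and 2 of 3 endothelial and 1 of 2 melanocyte probes were well above background on none. Precision is limited by the number of arrays. In the pathway list, 1 gene is counted but not reported here by name.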

Additional observations from a re-analysis of the deposited data

How the results depend on the processing

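With no scaling between arrays, 6 members were higher and 14 lower in corneal cells, and 1534 probes in all were higher; the count at least 2-fold higher was 0 there and 0 with normexp (background correction, quantile normalization and removal of spots together), with CCNA2 still called at 0.91 and 0.83. The change then turned to -0.044 for CDK1, -0.14 for CCND2, -0.053 for CDK2AP2, -0.0092 and -0.039 for the CDKN1B probes, -0.050 for KIFAP3, -0.00042 for the second GAK probe and -0.16 for NUMA1 (adjusted p = 0.0483). Pathway genes counted higher fell from 2 to 1 with no filter, and ranged from 1 to 2 with an array left out. With 1 probe per gene name the count was also 1, because a probe sharing its gene name was left out. None of the 36 single changes still fitted there lost its call. With an array left out, DMTF1 ranged from -0.086 (epidermal array 1) to 0.0021 (corneal array 1), and NUMA1 from -0.040 (epidermal array 1) to 0.050 (epidermal array 2). Over the fits with an array left out, 12 to 13 members were higher and 7 to 9 lower. CDK1, CDK2AP2 and KIFAP3 were called with quantile normalization, median centring and the authors' deposited table. POLD2 lost its call with median centring (adjusted p = 0.0542), and POLD2, KIF2A and AURKA lost theirs with no filter (0.0651, 0.0552 and 0.0550). Same-numbered arrays of the 2 groups did not deviate together (r = 0.017, -0.029 and 0.038). With 3 arrays a group this cannot tell whether same-numbered samples were paired. With the replicate number as a block, 12 members were higher and 8 lower, and 1 pathway probe was higher and 9 lower. CDK5, the first CDKN2AIPNL probe and AURKA then missed the threshold.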

Other observations

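On corneal array 3, 2 of the pathway and marker probes stood far from the other corneal arrays, both picked out after their values were seen. They were AURKA at -1.81 against -3.50 and -3.42, and a TYR probe, a melanocyte marker, at -4.75 against -7.56 and -7.36. The rest of the array was not searched for such probes, and the corneal SD reached 2.85 among all probes tested, against 0.95 for AURKA. Groups of 3 arrays were not tested for outliers. The members CCNA2, CCNB1 and CDK1 read -2.07, 0.99 and -2.76 on that array, against -1.87 and -1.92, 0.97 and 0.97, and -2.68 and -2.72 on corneal arrays 1 and 2.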
